A study of Caenorhabditis elegans with 2 samples.

Results

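LIN-29 sites in gene promoters away from small RNA genes are genomic regions that were recovered with the tagged transcription factor and whose peak summit lay within 1000 bp upstream of the 5′ end of a protein-coding gene. They were chosen by merging the overlapping peaks of 4 thresholded peak lists, taking the summit of the peak with the highest signal, and leaving out summits within 500 bp of a tRNA, snRNA or snoRNA gene. Of 1023 merged regions, 417 had a promoter summit, 52 of these lay near a small RNA gene, and 365 remained (35.7% of all regions, 95% Wilson interval 32.8 to 38.7%). These 365 are called promoter sites below, and the other 658 regions the other sites: 149 in introns, 190 in further intergenic sequence, 107 in exons and 212 near small RNA genes. Introns and exons are those of protein-coding genes. Intergenic means outside protein-coding genes, so genes of other kinds can lie there. ChIP-seq, the sequencing of DNA that is recovered with an immunoprecipitated protein, was done with an antibody against GFP on whole Caenorhabditis elegans L4 larvae, collected at 49 hours after growth from L1 larvae that had been starved following bleaching. The strain, RW12227, carries lin-29 fused to TY1, EGFP and 3xFLAG at its own locus (st12227, an insertion made with CRISPR). There was 1 group of 2 biological replicates, no second condition and no control immunoprecipitation analysed here. Whole animals were used, so a site can come from any tissue in which the tagged protein is present, and which tissue it came from was not measured.

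LIN-29 is a zinc finger protein that acts last in the heterochronic pathway, the cascade that times larval development, and is best known for switching the epidermis from its larval to its adult programme. In C. elegans the 5′ end of most mRNAs is removed by trans-splicing, so the annotated 5′ end of a gene is often some way downstream of where transcription starts. Neighbouring genes are often transcribed away from a shared promoter, called a divergent promoter, and others lie close together on a strand in operons, which are transcribed from a promoter ahead of the first gene.

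The sequence under the strongest promoter sites is shown first, because several of the strongest had a word of 8 letters in common. Each window runs 50 bp to either side of the summit, is read 5′ to 3′ in the direction of the nearest gene, contains no annotated exon, and comes from the RefSeq genome of WBcel235 (ce11). Capitals mark the word AACACGCT and the words AAGTGTA and GAGTGTA on either strand, and in F44E5.4 the heat shock element TTCNNGAANNTTC, the binding pattern of heat shock factor. The first 6 carry AACACGCT and are among the 20 strongest promoter sites whose sequence is found once in the genome, mrpl-28 carries it at a weaker site, and F44E5.4 and Y17G9B.5 complete the 4 strongest.
rpl-3 (chrIII:3867514-3867614, + strand): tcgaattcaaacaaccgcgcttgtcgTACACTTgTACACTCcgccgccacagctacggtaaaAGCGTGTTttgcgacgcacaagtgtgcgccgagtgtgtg
tasp-1 (chrIII:10759195-10759295, + strand): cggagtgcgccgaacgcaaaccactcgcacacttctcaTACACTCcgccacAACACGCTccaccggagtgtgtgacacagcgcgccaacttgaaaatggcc
rpl-35 (chrIII:7854663-7854763, + strand): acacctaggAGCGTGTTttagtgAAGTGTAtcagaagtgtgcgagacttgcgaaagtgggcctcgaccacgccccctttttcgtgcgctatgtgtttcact
cdc-48.1 (chrII:10563522-10563622, - strand): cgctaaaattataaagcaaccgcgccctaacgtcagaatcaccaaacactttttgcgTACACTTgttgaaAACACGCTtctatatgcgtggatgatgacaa
rpl-15 (chrIV:654880-654980, - strand): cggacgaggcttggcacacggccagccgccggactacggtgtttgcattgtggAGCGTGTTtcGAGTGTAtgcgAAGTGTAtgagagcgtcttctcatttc
cox-5A (chrIII:12905130-12905230, + strand): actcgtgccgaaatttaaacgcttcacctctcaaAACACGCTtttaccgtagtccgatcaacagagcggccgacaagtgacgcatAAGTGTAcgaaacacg
mrpl-28 (chrII:156071-156171, - strand): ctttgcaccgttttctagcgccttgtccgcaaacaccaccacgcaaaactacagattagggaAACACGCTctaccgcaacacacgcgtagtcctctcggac
F44E5.4 (chrII:11759409-11759509, - strand): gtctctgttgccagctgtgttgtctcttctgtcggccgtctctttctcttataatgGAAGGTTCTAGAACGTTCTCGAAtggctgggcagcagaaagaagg
Y17G9B.5 (chrIV:4750046-4750146, + strand): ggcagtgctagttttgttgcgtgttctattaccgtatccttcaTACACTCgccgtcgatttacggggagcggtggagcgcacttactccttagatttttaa

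Further windows show 6 words of 8 letters that were frequent at promoter sites, each at a strong site that carries it and is found once in the genome. Capitals mark any of AGACGCAG, CTGGCGCA, GCGTCAGC, CGCATTTC, ACGAGAAA and AAGTGCGC on either strand. Some of these words overlap: CTGGCGCA shares letters with AAGTGCGC read on the opposite strand, as at pcn-1, and with CGCATTTC, as at C34C12.8.
drr-2 (chrIII:13643691-13643791, - strand): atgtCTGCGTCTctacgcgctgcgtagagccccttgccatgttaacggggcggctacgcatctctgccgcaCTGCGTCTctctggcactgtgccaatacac
eelo-2 (chrIV:17249862-17249962, + strand): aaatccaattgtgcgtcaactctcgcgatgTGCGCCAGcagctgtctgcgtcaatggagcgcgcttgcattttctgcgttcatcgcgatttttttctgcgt
ntl-11 (chrIV:15471587-15471687, - strand): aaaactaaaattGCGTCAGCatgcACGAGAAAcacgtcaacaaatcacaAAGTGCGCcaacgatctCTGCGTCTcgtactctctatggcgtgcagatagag
C34C12.8 (chrIII:3460227-3460327, + strand): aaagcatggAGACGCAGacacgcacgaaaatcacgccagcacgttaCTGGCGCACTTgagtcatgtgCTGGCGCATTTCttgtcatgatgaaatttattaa
sec-61.G (chrV:10897307-10897407, - strand): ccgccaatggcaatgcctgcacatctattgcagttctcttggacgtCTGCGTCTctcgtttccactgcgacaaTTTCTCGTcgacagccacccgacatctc
pcn-1 (chrIV:4049670-4049770, - strand): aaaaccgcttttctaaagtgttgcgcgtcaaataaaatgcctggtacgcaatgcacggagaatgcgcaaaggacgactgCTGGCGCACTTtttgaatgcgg

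Signal is the value that the authors' peak caller gave each peak. Its scaling is not stated, so it is compared between sites within a list, and between the replicates by rank. Values are given for a site as pooled, from the series-wide list made from both replicates together, and from each replicate's own list of ranked candidates. The strongest promoter site was that of rpl-3, which codes for a protein of the large ribosomal subunit, 290 bp from the summit, with a signal of 575 pooled, 313 in replicate 1 and 265 in replicate 2. It ranked highest among promoter sites in both replicates. The next, between F44E5.4 and F44E5.5, which are annotated as Hsp70 heat shock proteins and point away from each other, had 521 pooled, 290 in replicate 1 and 228 in replicate 2. Its summit lay 148 bp upstream of F44E5.4 and 203 bp upstream of F44E5.5. Between Y17G9B.5 and the ribosomal protein gene rpl-20 there was a site with 425 pooled, 234 in replicate 1 and 194 in replicate 2. Next came tasp-1, a homologue of the protease taspase, whose summit lay 62 bp upstream and had 415 pooled, 239 in replicate 1 and 177 in replicate 2. These 4 sites held the same order of rank, 1 to 4, among promoter sites in the pooled list and in replicate 2, and in replicate 1 the last 2 changed places.

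The remaining sites among the 20 strongest had pooled signals from 241 to 375. They lay upstream of rpl-35, rpl-15 and rps-1 (ribosomal proteins), cdc-48.1 (an AAA ATPase that extracts ubiquitinated proteins), cox-5A (a subunit of cytochrome c oxidase), mog-4 (an RNA helicase of splicing), drr-2, rpa-2, eelo-2, eel-1, nspc-17, ins-39, serp-1.1 and Y39B6A.43, and between pairs that include the mitochondrial chaperonin gene hsp-60 and the cytosolic chaperonin gene cct-8. At hsp-60 the site lay 192 bp upstream of Y22D7AL.10, annotated as the mitochondrial heat shock protein that partners it, and 621 bp upstream of hsp-60 on the other side (330 pooled, 184 in replicate 1 and 145 in replicate 2). Sequence at the mog-4 and rpa-2 sites is repeated in the genome: 31.0% and 18.3% of the 31-letter words in these windows occur once, and how the authors placed reads of repeated sequence is not stated.

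The word AACACGCT was found at 7 of the 20 strongest promoter sites whose sequence is found once in the genome (35.0%, 18.1 to 56.7%): rpl-3, tasp-1, rpl-35, cdc-48.1, rpl-15, Y39B6A.43 and cox-5A. It was found at 1 of the other 304 such promoter sites, mrpl-28, a mitochondrial ribosomal protein gene with 76.1 pooled, 36.0 in replicate 1 and 35.7 in replicate 2. Among other sites found once in the genome, 0 of the 20 strongest and 2 of the remaining 420 had it. In the window of the same width centred 248 bp upstream of every protein-coding gene, the median distance of the promoter sites, 33 of 19973 promoters had it (0.165%). AAGTGTA was at 6 of the 20 strongest promoter sites against 3 of the 304, and in 1.67% of all promoters. GAGTGTA was at 5 of the 20 and 4 of the 304, and in 0.586% of all promoters. In all 9 of the 20 had at least 1 of the 3 words, with Y17G9B.5 and rps-1 beside those named, against 8 of the 304, and against 0 of the 20 strongest and 8 of the 420 remaining other sites. The words were chosen after the sequences of the strongest promoter sites had been seen and carry no test.

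The heat shock element was at 5 of the 365 promoter sites (1.37%, 0.587 to 3.17%), at 9 of the other 658 sites (1.37%) and in 0.681% of all promoters. Apart from F44E5.4 it was at the sites of R107.5 (216 pooled, 137 in replicate 1 and 76.6 in replicate 2), of hsp-110, a chaperone gene that shares its site with the proteasome gene rpn-3 (108 pooled, 52.0 and 51.7), of F46B6.6 and of ZK1290.5. Its share did not differ between promoter sites and other sites beyond counting error. It too was chosen after the sequence of F44E5.4 had been seen.

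The promoter sites recurred between the replicates more often than the other sites as a whole, most clearly against exon sites. A thresholded list of its own exists for each replicate, and 121 of the 365 promoter sites (33.2%, 28.5 to 38.1%) were in both, against 151 of the other 658 sites (22.9%, 19.9 to 26.3%). By class the share was 27.4% near small RNA genes (21.8 to 33.7%), 26.3% in further intergenic sequence (20.6 to 33.0%), 22.1% in introns (16.2 to 29.5%) and 9.35% in exons (5.16 to 16.4%). The intervals of all of these but exon sites overlap that of promoter sites. Over all 1023 regions the share was 26.6%. Replicate 1's list held 216 promoter sites (59.2%) and replicate 2's 147 (40.3%), with 95 in replicate 1's alone, 26 in replicate 2's alone and 123 in neither. With the rule applied to a single replicate's list, replicate 1's gave 213 promoter sites and replicate 2's 144. With candidates below the threshold included, 358 promoter sites (98.1%) had a candidate peak in both replicates. So had 634 of the other 658 sites (96.4%), so this did not set promoter sites apart. At the 358 promoter sites the summits of the candidates lay a median of 23 bp apart, 274 of the 358 within 50 bp and 6 over 200 bp.

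Rank of signal was closer between the replicates at promoter sites than at the other sites. Spearman's correlation across sites was 0.633 over the 358 promoter sites with a candidate in both replicates and 0.393 over 634 other sites, and it was 0.808 over the 121 promoter sites in both lists. Among the other sites it was 0.436 in further intergenic sequence, 0.418 near small RNA genes, 0.365 in introns and 0.0525 in exons. This correlation is given as a description, since sites of a library share its depth and background. The sites also entered through thresholded lists made from these same replicates, and the 121 had to be in both replicates' lists. How far this selection sets the correlations was not tested. Promoter sites also had a higher pooled signal, with a median of 81.1 (quartiles 64.8 and 122) against 71.0 (60.1 and 92.8) at the other sites. The median was 70.1 at intron sites, 71.7 at further intergenic sites, 59.5 at exon sites and 79.8 at sites near small RNA genes. Because the median of the last of these is close to that of promoter sites, a higher signal is not particular to promoter sites.

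**Figure D1:**
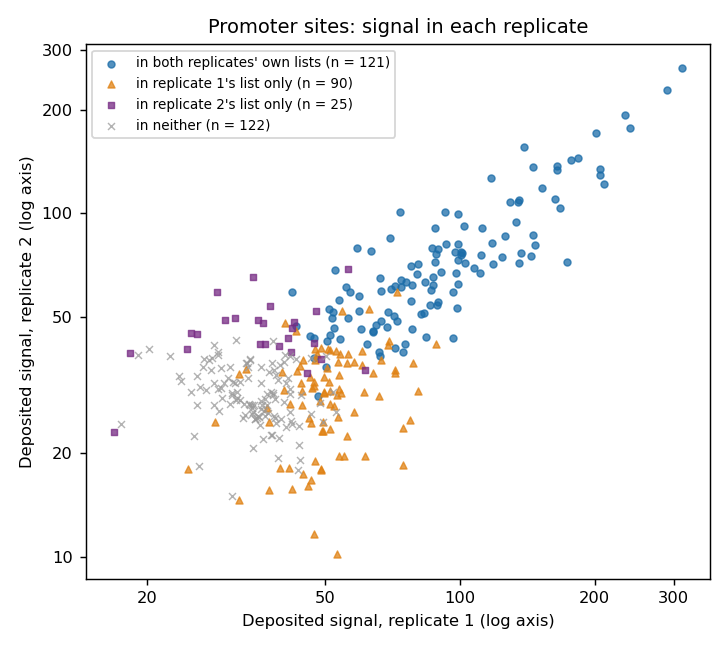
Deposited signal of each promoter site in replicate 1 (horizontal) and replicate 2 (vertical), both on log axes, for the 358 sites with a candidate in both. Colours and shapes give the replicates' own lists that hold the site, and the 121 sites in both lists fill the upper right, up to 313 and 265 at rpl-3.

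Recurrence followed signal closely. With the 364 sites that have a pooled signal split by signal into 4 groups of 91, 89 sites of the strongest group (97.8%) were in both replicates' lists, 30 of the next (33.0%), and 1 (1.10%) in each of the weaker groups. In the weakest group 72 of 91 sites were in neither replicate's list. The pooled value is made from both replicates, so these measures are not independent.

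**Figure D2:**
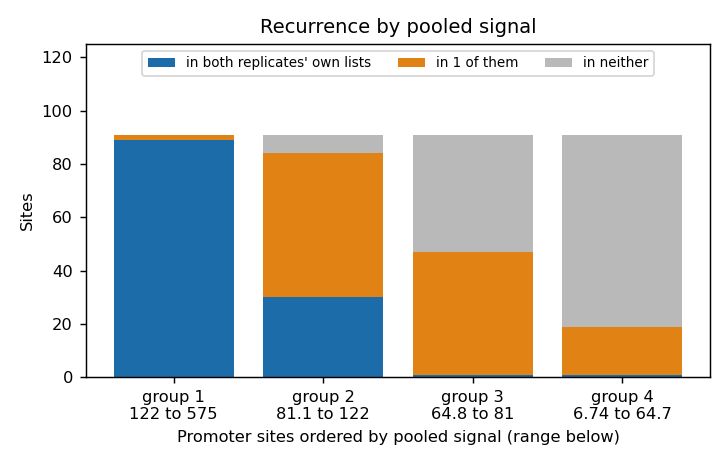
Number of promoter sites in both, in 1 or in neither of the replicates' own lists, for 4 groups of 91 sites ordered by pooled signal, strongest on the left, with the range of signal under each bar. Sites in both lists make up 89, 30, 1 and 1 of the groups.

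Some sites were uneven in rank between the replicates. The site of bet-2, which codes for a bromodomain protein, ranked 145 among promoter sites in replicate 1 and 359 in replicate 2, with signals of 53.2 and 10.1, but the summits of its candidates lay 250 bp apart. That of gpd-3, a glyceraldehyde-3-phosphate dehydrogenase gene, ranked 189 in replicate 1 and 358 in replicate 2, with summits 92 bp apart. In the other direction tba-2, an alpha tubulin gene, ranked 336 in replicate 1 and 81 in replicate 2, and eif-3.C, a translation initiation factor gene, 292 and 64, with summits 3 and 38 bp apart. Each of these was in the list of the replicate where it was high and not in that of the other.

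Most promoter sites were in a series-wide list, as were most other sites. The pooled list held 325 of the 365 (89.0%), against 80.5% of other sites. The conservative series-wide list held 306 (83.8%), against 74.9% of other sites. In all 4 lists were 120 promoter sites (32.9%) and 22.3% of other sites, and in 1 list only 66 (18.1%) and 27.7%. Of the 9550 candidates in promoters in the pooled ranked list, 3.4% were in the pooled thresholded list. The 8 promoter sites in neither series-wide list were those of dlc-1 with nduf-2.2, cyc-1, nipi-3, bet-2, ippk-1, gpd-3, R10E11.6 and snrp-3. The strongest of these with a pooled candidate, at dlc-1 and at cyc-1 (a cytochrome c1 gene), had 46.9 and 50.4 in replicate 1 and no candidate in replicate 2. The snrp-3 site had 50.8 in replicate 1, no candidate in replicate 2 or in the pooled ranked list, and 75.9 in the ranked list behind the conservative one.

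Promoter sites lay close to the 5′ end within the window that defined them. Their median distance was 248 bp (quartiles 143 and 436), against 472 bp (217 and 737) for the 9550 promoter candidates. The interval from 101 to 250 bp held 123 promoter sites (33.7%) and 16.6% of candidates, and that from 751 to 1000 bp held 27 (7.40%) and 23.8% of candidates. Candidates were spread almost evenly along the window, while the promoter sites thinned out beyond 500 bp. Signal had little relation to distance (Spearman's correlation across sites -0.05, n = 364). The median signal was 89.1 at sites within 100 bp and 79.6 at sites 751 bp or more away, and the share in both replicates' lists was 41.0% and 25.9% there.

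**Figure D3:**
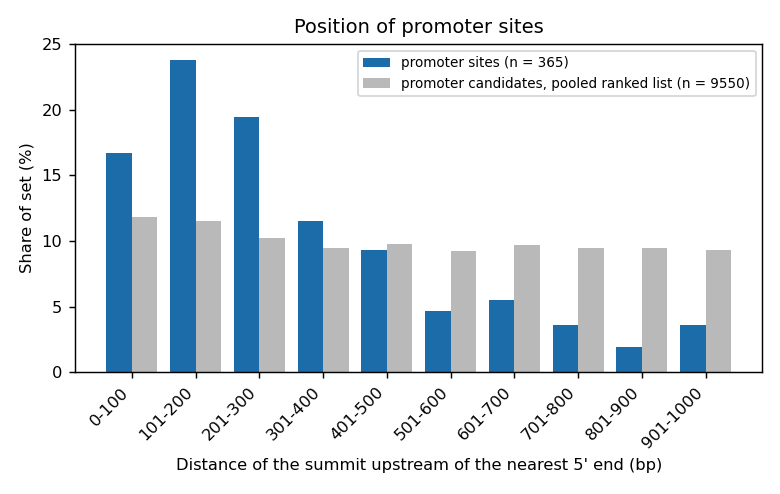
Share of the 365 promoter sites (left bar of each pair) and of the 9550 promoter candidates of the pooled ranked list (right bar) by distance of the summit upstream of the nearest 5′ end, in steps of 100 bp. Promoter sites peak between 101 and 200 bp (23.8%, against 11.6% of candidates) and candidates stay between 9.20 and 11.8% in every step.

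Some strong sites lay near the limits of the rule. Nearest inside the outer limit were the sites of dhs-8 at 1000 bp (87.9 pooled) and ift-43 at 996 bp (176), and nearest outside were those of Y71H2AM.20 at 1018 bp (58.0) and F58D5.5 at 1039 bp (74.6). The strong sites of cdc-48.1 and rpl-15 lay 508 and 569 bp from a small RNA gene and were kept. The sites of rpl-7A (298 pooled), 347 bp from one, and of ska-3 (178), 249 bp from one, were dropped.

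Many promoter sites lay upstream of genes on both strands. A single gene's window held 250 of the 365 summits, 109 lay in the windows of 2 genes and 6 in those of 3. Genes pointed away from the summit on both strands at 102 sites (27.9%, 23.6 to 32.8%), against 9.25% of the 9550 promoter candidates. Examples are rpl-39 and rps-30, 214 and 285 bp from a summit (84.1 pooled, 47.3 in replicate 1 and 37.9 in replicate 2), the histone genes his-67 and his-68 (127 pooled, 71.6 and 61.7), and rpl-12 with lin-54, a gene of the DREAM repressor complex, 35 and 358 bp from a summit. The nearest gene of a promoter site also more often had a neighbour close behind it: 28.8% of 361 nearest genes (24.4 to 33.7%) were followed on the same strand within 500 bp, against 18% of all protein-coding genes. Whether these genes lie in operons was not determined. Summits lay outside all protein-coding gene models at 320 sites, and at 24 and 21 sites in an exon or intron of another or overlapping protein-coding gene.

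Promoter sites made up a smaller part of the sites on X than elsewhere. On X 49 of 222 regions (22.1%, 17.1 to 28.0%) were promoter sites, against 36.0% to 42.0% on each autosome. Their number on X was in step with its genes, since 13.4% of promoter sites and 13.7% of protein-coding genes were there, whereas 21.7% of all regions were. The strongest on X were at nspc-17, a nematode-specific peptide gene (309 pooled, 139 in replicate 1 and 156 in replicate 2), and ins-39, an insulin-related gene (273 pooled, 163 and 110).

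In all 480 of 19973 protein-coding genes (2.4%) had a promoter site in their window. Set beside that share, genes in most lists of the basic machinery of the cell had promoter sites more often. So did genes of developmental timing and of the cell cycle, in short lists of 26 and 30 genes. The shares of epidermal and single-tissue lists could not be told apart from that of all genes. Of the 81 genes for cytosolic ribosomal proteins, 22 had one (27.2%, 18.7 to 37.7%), at 20 sites, 12 of them in both replicates' lists. Their median pooled signal was 128. Genes were counted whether or not another gene lay nearer to the summit. One did at rpl-20, rps-19, rps-20, rps-23, rpl-22, rps-30 and rpl-36, and for rps-30 and rpl-36 it was itself a ribosomal protein gene. After rpl-3, rpl-20 and rpl-35 (375 pooled, 201 in replicate 1 and 171 in replicate 2) the strongest were rpl-15, rps-1 and rpl-12 (238 pooled, 129 and 108). The weakest, at rps-14 and rpl-36, which share a site, had 57.3 pooled, 42.3 in replicate 1 and 15.8 in replicate 2. By contrast 2 of 70 mitochondrial ribosomal protein genes had a site (2.86%), mrpl-55 and mrpl-28, close to the share of all genes.

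Among the lists of basic machinery, chaperone genes followed, with 13 of 75 (17.3%, 10.4 to 27.4%), and 10 of their 13 sites were in both replicates' lists. Another gene lay nearer to the summit at hsp-60, cct-8, pdi-3, cct-1 and pfd-1. Besides hsp-60 and cct-8 (275 pooled, 167 in replicate 1 and 103.7 in replicate 2), the strongest was at dnj-13, a J-domain cochaperone gene (184 pooled, 111 and 75.7). Sites at hsp-1, the constitutive Hsp70 gene (164 pooled, 86.8 in replicate 1 and 79.1 in replicate 2), and hsp-3, an Hsp70 gene of the endoplasmic reticulum (132 pooled, 77.8 and 55.6), came next among the Hsp70 genes of the list. The list takes genes by symbol and so does not contain F44E5.4 or F44E5.5.

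The respiratory chain list had a site at 8 of 52 genes (15.4%, 8.01 to 27.5%), led by cox-5A (273 pooled, 152 in replicate 1 and 118 in replicate 2), atp-1, the alpha subunit of ATP synthase (177 pooled, 103 and 71.7), and cox-5B (147 pooled, 89.0 and 54.04). This list does not contain every gene of the chain: ndub-8 (75.4 pooled) and nduc-2 (83.4 pooled, nearer to Y71H2AM.20) also had a site and are not in it. Nuclear pore and transport genes had one at 6 of 40 (15%), led by npp-6 (181 pooled, 97.5 in replicate 1 and 77.1 in replicate 2), a nucleoporin gene, imb-3 (156 pooled, 96.3 and 58.9), an importin gene, and npp-8 (83.5 pooled). Vesicle traffic genes had one at 18 of 140 (12.9%, 8.29 to 19.4%). Subunits of the channel that brings proteins into the endoplasmic reticulum, sec-61.B and sec-61.G, were among the strongest (179 and 175 pooled), and sec-61.B shares its site with trap-3, a subunit of the complex that associates with that channel. Splicing and RNA processing genes had one in 12 cases (11.5% of the list, 6.72 to 19.1%), but only 1 of their 11 sites, that of mog-4, was in both replicates' lists. The next, shared by the splicing factor genes rsp-1 and rsp-2, had 89.9 pooled, 42.3 in replicate 1 and 46.5 in replicate 2.

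Smaller shares were found for histones and chromatin (16 of 182, 8.79%), led by set-16, a histone methyltransferase gene that shares its site with drr-2 (326 pooled, 210 in replicate 1 and 121 in replicate 2), his-37, a histone gene (239 pooled, 117 and 127), and lin-53, a histone-binding protein gene (173 pooled, 89.5 and 78.9). Histone genes have near-identical copies, and at his-5 and his-6 94.4% of the words are found once. At set-25, a further gene of this list with a site, 0% are. Translation factors and tRNA synthetases (5 of 76, 6.58%) were led by iff-2 (171 pooled), eef-2 (140) and ears-2 (109). General transcription genes (5 of 79, 6.33%) were led by rpb-11 (135), rpac-19 (91.4) and mdt-19 (83.9). The mdt-19 summit, 757 bp upstream, lay nearer to apb-1, at 262 bp. Proteasome and ubiquitin genes (6 of 96, 6.25%) were led by cdc-48.1 (332), ubc-6 (122) and rpn-3 (108). At ubc-6 21.1% of the words are found once. The tubulin and actin list had a larger share than these, 5 of 31 (16.1%, 7.09 to 32.6%), led by cap-2 (151), an actin capping protein gene, tbg-1 (91.4) and tba-2 (86.4). The tbg-1 site is the rpac-19 site named above, 784 bp upstream of tbg-1 but 53 bp upstream of rpac-19, and was in neither replicate's list. With 31 genes in the tubulin and actin list the interval is wide, but its lower end lies above the 2.4% of all genes. The same holds for every list named in this and the preceding paragraphs except the mitochondrial ribosomal one. These intervals are for each list alone and are not adjusted for the number of lists.

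**Figure D4:**
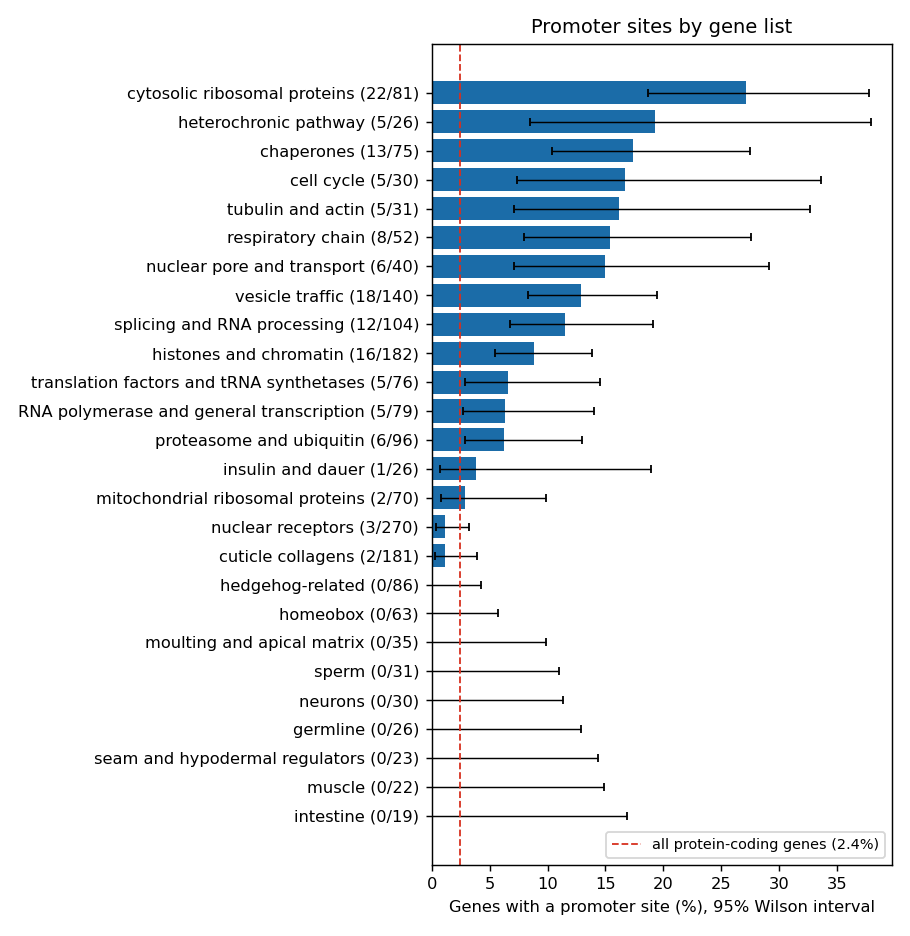
Share of the genes of each of 26 lists with a promoter site (bars), with 95% Wilson intervals (lines), and the share of all protein-coding genes (dashed line, 2.4%). Cytosolic ribosomal protein genes stand at the top with 27.2%, and 9 lists at the bottom have no site.

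Among genes of developmental timing, the pathway that LIN-29 itself belongs to, 5 of 26 had a promoter site (19.2%, 8.51 to 37.9%), and 3 of the 5 sites were in both replicates' lists. The lower end of the interval, not adjusted for the number of lists, lies above the 2.4% of all genes. The site of nhl-2, a TRIM-NHL protein that acts with microRNAs, lay 828 bp upstream (233 pooled, 134 in replicate 1 and 94.5 in replicate 2), but closer, at 595 bp, to tag-340 on the other strand. The site of puf-9, a Pumilio-family RNA-binding protein, lay 287 bp upstream with no other gene in reach (194 pooled, 102 and 91.7). That of ain-1, a GW182-family partner of the microRNA Argonautes, lay 958 bp upstream (119 pooled, 78.4 in replicate 1 and 36.7 in replicate 2) and was in replicate 1's list only. The lin-46 summit, 838 bp upstream, lay only 35 bp upstream of R186.8 (97.3 pooled, 51.1 in replicate 1 and 52.8 in replicate 2), and 77.5% of its sequence words are found once. The promoter site of kin-20, a casein kinase gene, was the weakest (53.2 pooled, 26.1 in replicate 1 and 18.4 in replicate 2) and in neither replicate's list. Thus 2 of the 5, nhl-2 and lin-46, had a nearer gene.

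With a lower end also above the 2.4% of all genes, cell cycle genes had a promoter site at 5 of 30 (16.7%, 7.34 to 33.6%). These were lin-35, the retinoblastoma homologue, which shares its site with vps-51 (90.3 pooled, 46.2 in replicate 1 and 43.9 in replicate 2), efl-1, an E2F gene (82.96 pooled, 47.3 and 32.3), cdk-5 (78.2), cdk-7 (64.2) and cye-1, the cyclin E gene (61.5). The lin-35 site was in both replicates' lists, and the efl-1 site in replicate 1's. The cye-1 summit, 547 bp upstream, lay nearer to pqn-21, at 101 bp.

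Genes of the epidermis and cuticle, the tissue in which LIN-29 is best known, were not set apart from all genes: the intervals of the collagen, seam and hypodermal, and moulting lists all contain the 2.4% of all protein-coding genes. Cuticle collagens had one at 2 of 181 genes (1.10%, 0.304 to 3.94%). The site of bli-6 (60.6 pooled, 34.4 in replicate 1 and 26.4 in replicate 2) is shared with hrpf-2, an RNA-binding protein gene that lies nearer. The site of col-20 lay 987 bp upstream (55.7 pooled), with 41.4 in replicate 2 and no candidate in replicate 1. Of 23 seam and hypodermal regulators none had one (upper Wilson limit 14.3%), and of 35 moulting and apical matrix genes none (up to 9.89%). Hedgehog-related genes had 0 of 86 (up to 4.28%), homeobox genes 0 of 63 (up to 5.75%), and nuclear receptors 3 of 270 (1.11%, 0.379 to 3.22%), namely nhr-68 (92.7 pooled), nhr-142 (79.8) and nhr-141 (64.3). At nhr-141 21.1% of the words are found once, and at nhr-68 and nhr-142 another gene lay nearer to the summit. The insulin and dauer list had 1 of 26, daf-16, the FOXO transcription factor gene (68.7 pooled, 37.3 in replicate 1 and 26.2 in replicate 2). This list does not contain ins-39, the insulin-related gene named above, whose site was stronger (273 pooled, 163 in replicate 1 and 110 in replicate 2).

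Markers of other tissues had no promoter site: 0 of 19 intestinal, 22 muscle, 30 neuronal and 26 germline genes, and 0 of 31 major sperm protein genes. With lists of this size the upper Wilson limits run from 11.0 to 16.8%, above the 2.4% of all genes, so a lower share than in other genes was not detectable. Over all 26 lists 133 of 1879 genes had a promoter site (7.08%), against 347 of the 18094 in no list (1.92%).

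Of the genes with a promoter site, 6 had 2 of them: dpf-3, ego-1, gasr-8, ift-43, nipi-3 and pro-1. At pro-1, a gene needed for ribosome biogenesis and germline development, sites lay 71 bp upstream (176 pooled, 98.1 in replicate 1 and 67.0 in replicate 2) and 896 bp upstream (79.6 pooled, 50.2 and 35.8), each in both lists. At ift-43, an intraflagellar transport gene, the farther site, 996 bp upstream, was the stronger (176 pooled, 88.1 in replicate 1 and 90.5 in replicate 2), against 77.1 pooled, 47.9 and 38.9 at 471 bp. At ego-1 a single candidate of replicate 1 (61.5) overlaps both sites, 365 and 577 bp upstream, so replicate 1 does not separate them. The nearer site had 87.0 pooled and 35.0 in replicate 2. The farther had 6.74 pooled, the lowest of all promoter sites, no candidate in replicate 2, and was in neither replicate's list.

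The sequence at promoter sites was rich in G and C. The median GC content within 50 bp of the summit was 49.5%, against 37.6% in windows centred 500 bp to either side and 33.7% in all promoters. Other sites had 48.5%, so GC content did not set promoter sites apart from them. It rose slightly with signal (Spearman's correlation across sites 0.18, n = 364), with 52.5% in the strongest of the 4 groups of 91 and 49.5% in the rest. Repeated sequence was less common than at the other sites as a whole: 27 promoter sites (7.40%, 5.13 to 10.5%) had fewer than 50% of their 31-letter words found once, against 111 other sites (16.9%, 14.2 to 19.9%). The rule leaves out sites near small RNA genes, which hold 65 of these 111 (30.7% of their class). The share was 13.4% at intron sites (8.86 to 19.8%), 11.1% at further intergenic sites (7.34 to 16.3%) and 4.67% at exon sites (2.01 to 10.5%), and the intervals of these classes overlap that of promoter sites.

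Short words on either strand of the windows differed in kind. GAGAGA was at 79 promoter sites (21.6%, 17.7 to 26.2%) and 20.2% of other sites, and in 6.16% of flanks and 6.51% of all promoters. The classes differed: it was at 30.2% of intron sites (23.4 to 38.0%), 27.9% of further intergenic sites (22.004 to 34.7%) and 11.3% of sites near small RNA genes. ACGCAG was at 72 (19.7%, 16.0 to 24.1%), against 14.1% of other sites and 2.73% of all promoters. ACGCGC (17.8%, 14.2 to 22.1%) and GCGCGC (12.9%, 9.82 to 16.7%) were more frequent than at other sites (8.36% and 5.93%), with intervals that do not overlap, and than in all promoters (2.12% and 1.29%). Against single classes some intervals do overlap, as for ACGCGC near small RNA genes (10.4%, 6.95 to 15.2%) and for GCGCGC in introns (8.05%, 4.67 to 13.5%). CACGTG, the E-box, was at 3.84% of promoter sites (2.30 to 6.33%) and 5.62% of other sites, with 8.72% in introns (5.17 to 14.4%), 8.42% in further intergenic sequence (5.25 to 13.2%) and 0.943% near small RNA genes. Some words that are frequent in all promoters were rarer at promoter sites and at other sites alike. AAAAAA was at 24.7% of promoter sites and 24.5% of other sites, against 45.1% of all promoters. TATAAA, the TATA box core, was at 4.66% and 5.47% against 13.1%. TGATAA, the GATA factor pattern, was at 3.29% and 3.65% against 10.7%, and TTTCAG, the splice acceptor pattern, at 8.22% and 6.84% against 17.7%. TGACTCA, the AP-1 pattern, was at 0.822% of promoter sites and in 1.15% of all promoters.

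The shares of 6 longer words follow. They were chosen after the data were seen, for their frequency at promoter sites, and carry no test. That choice favours a high share at promoter sites, so they are not compared with the shorter words. CTGGCGCA was at 30 promoter sites (8.22%, 5.82 to 11.5%), 6 of the other 658 sites (0.912%) and 0.210% of all promoters. GCGTCAGC was at 25 (6.85%) against 2 (0.304%) and 0.155%. AAGTGCGC was at 23 (6.30%) against 4 (0.608%) and 0.401%. CGCATTTC was at 26 (7.12%) against 11 (1.67%) and 0.426%, and ACGAGAAA at 25 (6.85%) against 6 (0.912%) and 0.891%. AGACGCAG, which contains ACGCAG, was the most frequent, at 42 (11.5%, 8.63 to 15.2%), and the least particular, with 44 other sites (6.69%) and 1.01% of all promoters. Intron sites (10.1%, 6.20 to 15.9%) and further intergenic sites (9.47%, 6.08 to 14.5%) had it about as often as promoter sites, and sites near small RNA genes at 1.42%. In intron and further intergenic sites the other 5 words were at 2.01% or fewer. At least 1 of the 6 was at 105 promoter sites (28.8%), against 65 other sites (9.88%) and 2.85% of all promoters, and 45 promoter sites (12.3%) had 2 or more.

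**Figure D5:**
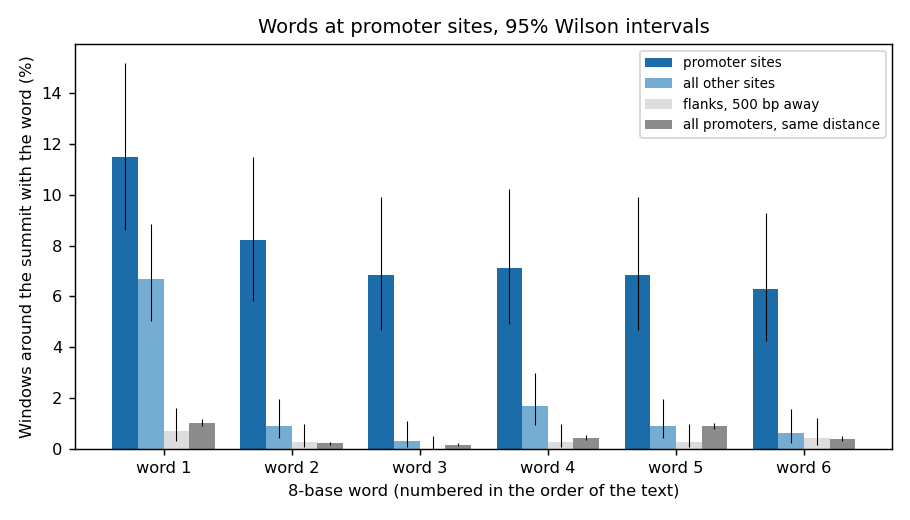
Share of windows of 101 bp with each of 6 words of 8 letters (AGACGCAG, CTGGCGCA, GCGTCAGC, CGCATTTC, ACGAGAAA and AAGTGCGC as words 1 to 6), with 95% Wilson intervals, from left to right in promoter sites, all other sites, flanks 500 bp from the promoter summits and all promoters at the median distance of the sites. Word 1 is at 11.5% of promoter sites and 6.69% of other sites, and words 2 to 6 are at 6.30 to 8.22% and 0.304 to 1.67%.

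Of the 6 words, CTGGCGCA lay nearest to the summit. Its matches were a median of 16.5 bp from it, with 77.1% within 25 bp, while a word spread evenly over the 101 bp searched would have a median of 23.5 bp and 53.2% within 25 bp. The other 5 words had medians between 20 and 24.5 bp and 51.9 to 61.5% within 25 bp, close to an even spread. Each word was found in both directions: of the matches at sites with genes on 1 strand only, CTGGCGCA ran with the gene at 11 of 18, AGACGCAG at 19 of 33, GCGTCAGC at 4 of 14, CGCATTTC at 14 of 21, ACGAGAAA at 10 of 19 and AAGTGCGC at 7 of 12. Sites with AAGTGCGC had a median signal of 114 against 79.9 without it, and 47.8% against 32.2% were in both replicates' lists. Sites with AGACGCAG had 79.4 against 81.2 and 28.6% against 33.7%, so a word's presence did not go with higher signal in every case. No CTGGCGCA, GCGTCAGC or AAGTGCGC site was at repeated sequence, while 5 of the 26 CGCATTTC sites, 3 of the 25 ACGAGAAA sites and 3 of the 42 AGACGCAG sites were. The sites printed above show how the words combine: ntl-11, a subunit gene of the CCR4-NOT deadenylase (227 pooled, 147 in replicate 1 and 81.1 in replicate 2), has 4 of the 6 within its window, and so has C34C12.8, annotated as a mitochondrial GrpE homologue (186 pooled, 118 and 71.4). At pcn-1, the gene of the replication clamp PCNA (173 pooled, 101 in replicate 1 and 75.4 in replicate 2), CTGGCGCA and AAGTGCGC overlap.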

How the data were processed

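ChIP-seq peak lists of 2 biological replicates were analysed, in ce11 coordinates per the labels. The manifests deposited with the samples list each replicate's own alignments as input of its lists, and both replicates' for the series-wide lists. For the aligner and the caller used, a name is not given in the sources used here, so their settings are unknown. The deposited signal is the authors' peak caller's value, and the deposited score runs up to 1000 and grows as the irreproducible discovery rate (IDR) falls. The lowest score kept, 830, stands for an IDR of 0.01. The lists hold no read counts, so depth is unknown, and intervals cover counting error over sites or genes only.

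Thresholded lists of 906 (pooled), 841 (conservative), 534 (replicate 1) and 387 (replicate 2) peaks were merged at 1 bp of overlap. A site's signal is that of the strongest overlapping candidate in a ranked list. Genes came from Ensembl release 115 of WBcel235 (19973 protein-coding, 1087 small RNA genes), and windows of 101 bp from the RefSeq genome. Work was done in Python 3.11.15 with numpy 2.4.6, pandas 2.3.3, scipy 1.17.1 and matplotlib 3.10.9, and the site rule was tested on simulated data.

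Members and lists were chosen with earlier results of these data known, and the symbol patterns of several of the 26 lists were corrected after the files were read, to match the intended genes. No test was run, since there is 1 group and sites are not replicates. Genes are named as the 20 strongest sites, the top 3 of each list, the sites of the timing and epidermal lists, the 5 strongest outside both series-wide lists, those with 2 sites and those at the rule's limits. The other 3 outside both series-wide lists, and genes named as carriers of words or as examples, were chosen after their values were seen.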

Additional observations from a re-analysis of the deposited data

How the results depend on the processing

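Each of 10 summary values was recomputed under up to 14 alternatives, 118 in all, of which 93 stayed within the interval of the reported value (for counts, within 1.5 times). A promoter width of 500 bp gave 28.8% of regions, a median distance of 200 bp and genes on both strands at 22.03% of sites, and 2000 bp gave 43.2%, 304 bp and 34.6%. The 5′ end of any protein-coding transcript gave 40.6% of regions. The conservative list alone gave 39.7% of sites in both replicates' lists, a median signal of 87.5 and a replicate rank correlation of 0.704, and an IDR of 0.005 or lower gave 41.0% and a median signal of 90.4. The median GC content was 52.9% within 25 bp and 44.8% within 100 bp of the summit. Leaving out each replicate in turn, so that sites came from the other's list alone, gave 144 to 213 sites, 37.8 to 40.3% of regions, 209 to 297 genes, 13 to 21 ribosomal protein genes, median signals of 111 to 140, median distances of 229 to 250 bp, GC contents of 50.5 to 51.5% and genes on both strands at 32.9 to 37.5% of sites. The 144 sites, 209 genes, 13 ribosomal protein genes and median of 140 came from replicate 2's list, without replicate 1, and the 213 sites, 297 genes, 21 ribosomal protein genes and median of 111 from replicate 1's, without replicate 2. Recurrence and the rank correlation need both replicates and have no value there. The cause of these shifts was not tested, except that fewer peaks or a wider window change the count by construction. No paired analysis was possible because there is 1 group.

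With 2 replicates, no control immunoprecipitation analysed here and no read counts, the part of the signal that does not depend on the tagged protein was not measured, and sites in neither replicate's own list rest on the series-wide lists. Shares of short gene lists have wide intervals. Whole larvae mix tissues, so no site can be given a tissue.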
